A study of Homo sapiens with 34 samples.

Results

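The genes described are 10 enzymes and carriers listed for the synthesis, activation or interconversion of steroids: STAR, CYP11A1, CYP17A1, HSD3B1, HSD3B2, HSD17B6, HSD17B11, AKR1C3, SRD5A1 and SRD5A3. They were taken by symbol from a count table of 26336 genes, and all 10 were in it. The table holds poly(A) RNA sequencing of 4 human prostate cell lines in 34 libraries and 17 groups. RWPE is a non-tumorigenic prostate epithelial line, LNCaP is an adenocarcinoma line, and VCaP and MDAPCa2a come from bone metastases. Cells grew on tissue culture plastic or on ACP, amorphous calcium phosphate, a mineral surface that serves as a model of bone.

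Control medium was each line's own: serum-free keratinocyte medium with growth factor and pituitary extract for RWPE, RPMI with serum for LNCaP, DMEM and F12 with serum for VCaP, and a rich proprietary medium with serum for MDAPCa2a. Stripped medium carried serum treated with charcoal and dextran, which removes steroids, and androgen medium was stripped medium with an androgen labelled as 100 mM. The titles call this androgen DHT and the treatment labels call it testosterone. LNCaP and VCaP had 5 groups each (plastic control, plastic stripped, ACP control, ACP stripped and ACP androgen), MDAPCa2a had 4 (no ACP control) and RWPE had 3 (plastic control, ACP control and ACP androgen). A group held 2 libraries, except RWPE ACP androgen with 3 and VCaP plastic stripped with 1. MDAPCa2a grew on protein-coated plastic but on ACP without that coating, so surface and coating cannot be told apart there. Nothing in the labels says that replicates were separate cultures, so p-values measure only the spread between libraries, which may be technical.

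Depth ran from 15.4 to 44.8 M counts per library. The lines carried their defining transcripts: mean KRT5 was 4058 to 9208 CPM (counts per M counts of TMM-scaled library size) in the RWPE groups and at most 9.04 CPM in the others, and mean ERG was 136 to 722 CPM in the VCaP groups and at most 1.88 CPM elsewhere. Plastic control is the one condition labelled as continuous culture, while the others are labelled day 4. Some transcripts of other tissues were also higher in its 8 libraries. In each of them, 5 of 10 liver markers and 1 of 4 lymphoid markers exceeded all 26 other libraries. The remaining markers of both lists did not separate the libraries in this way. The matching share of all genes is not given here, so these counts are not read as particular to liver or lymphoid transcripts. The summed liver markers ranged from 7.81 to 170 CPM in plastic control and from 0 to 383 CPM elsewhere (the high values being VCaP, which had 44.1 CPM or more in every library), and the lymphoid sum from 4.87 to 17.4 CPM against 0.0666 to 4.57 CPM. No marker of either list was at 0 in every library. In each comparison against plastic control, this difference and the medium or surface cannot be told apart. Adrenal markers, which would accompany steroid-making tissue, summed to at most 0.349 CPM in any library, with CYP11B2 and MC2R at 0 throughout.

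Steroid synthesis starts in the mitochondrion. STAR carries cholesterol to the inner membrane, and CYP11A1 cuts its side chain to give pregnenolone, the first and rate-limiting enzymatic step. CYP17A1 and the 3-beta dehydrogenases HSD3B1 and HSD3B2 then lead to weak androgens; AKR1C3 reduces androstenedione to testosterone, SRD5A1 makes dihydrotestosterone and HSD17B6 can regenerate dihydrotestosterone from an inactive diol. Prostate tumours that grow after castration are known for drawing on the later steps, from adrenal precursors.

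Promoter sequences are shown for CYP11A1, HSD3B1 and AKR1C3, the members with the clearest differences between media in the results that follow. Each is the 250 bases before the RefSeq transcription start in GRCh38.p14, read 5′ to 3′ on the gene's strand. HSD3B1 and AKR1C3 each have 2 listed starts, and a single start was used for each. CYP11A1 lies on the minus strand (chr15:74367647-74367896), HSD3B1 on the plus strand (chr1:119506953-119507202) and AKR1C3 on the plus strand (chr10:5094164-5094413). Capitals mark motif matches.
CYP11A1: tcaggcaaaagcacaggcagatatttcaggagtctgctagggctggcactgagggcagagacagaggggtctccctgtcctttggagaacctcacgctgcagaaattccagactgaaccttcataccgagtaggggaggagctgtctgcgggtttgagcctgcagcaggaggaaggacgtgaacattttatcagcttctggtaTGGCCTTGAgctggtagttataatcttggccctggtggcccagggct
HSD3B1: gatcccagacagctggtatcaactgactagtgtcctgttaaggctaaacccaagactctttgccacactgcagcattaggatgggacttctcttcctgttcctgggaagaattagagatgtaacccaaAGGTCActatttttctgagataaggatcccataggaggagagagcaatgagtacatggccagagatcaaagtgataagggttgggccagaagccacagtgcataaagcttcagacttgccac
AKR1C3: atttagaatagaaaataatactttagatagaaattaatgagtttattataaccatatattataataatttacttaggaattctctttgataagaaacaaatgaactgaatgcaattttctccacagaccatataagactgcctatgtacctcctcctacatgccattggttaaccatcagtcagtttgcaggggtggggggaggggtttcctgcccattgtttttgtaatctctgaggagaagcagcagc
The promoters were searched on both strands for the steroidogenic factor 1 (SF-1) site NCAAGGNCA, the nuclear receptor half-site AGGTCA, the androgen response element half-site AGAACA, the cAMP response element TGACGTCA, the TATA box TATAAA and the GC box GGGCGG. The SF-1 letters may overlap a half-site. CYP11A1 held an SF-1 match on the opposite strand at positions -47 to -39 from the start, a match held by 4.50% of 35116 promoter windows of this length. HSD3B1 held the nuclear receptor half-site at -122 to -117 (12.1% of windows), and AKR1C3 held none of the 6. A match is a description of letters only. NR5A1, the gene for SF-1, was at most 0.0519 CPM in any group mean. Its relative NR5A2 averaged 3.30 to 12.3 CPM in the VCaP groups, 4.21 to 15.1 CPM in the MDAPCa2a groups and at most 0.997 CPM in RWPE and LNCaP.

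The 3 members at the head of the pathway apart from CYP11A1 were close to absent. STAR had 69 reads in all 34 libraries together, with at most 8 in one library. HSD3B2, the adrenal and gonadal 3-beta dehydrogenase, had 6 reads in all. CYP17A1 had 15 reads, of which 3 and 5 lay in the VCaP ACP androgen libraries; LNCaP had 0 reads in 10 libraries, which allows up to 0.00921 CPM (3 counts, counting error only). These 3 genes passed no filter on low counts and were not tested, and the other 7 passed in at least 1 fit. Comparison of levels between genes needs a correction for length, so the following are CPM per kb of exon, averaged over the groups of a line, and are levels. SRD5A3 led in LNCaP (23.9) and RWPE (11.3), and HSD17B11 led in VCaP (34.7) and MDAPCa2a (30.9). AKR1C3 was next in VCaP (22.2), and SRD5A1 next in MDAPCa2a (9.16). CYP11A1 stood at 3.80 in LNCaP and 3.08 in MDAPCa2a and at 0.00986 in RWPE and 0.0177 in VCaP.

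**Figure D1:**
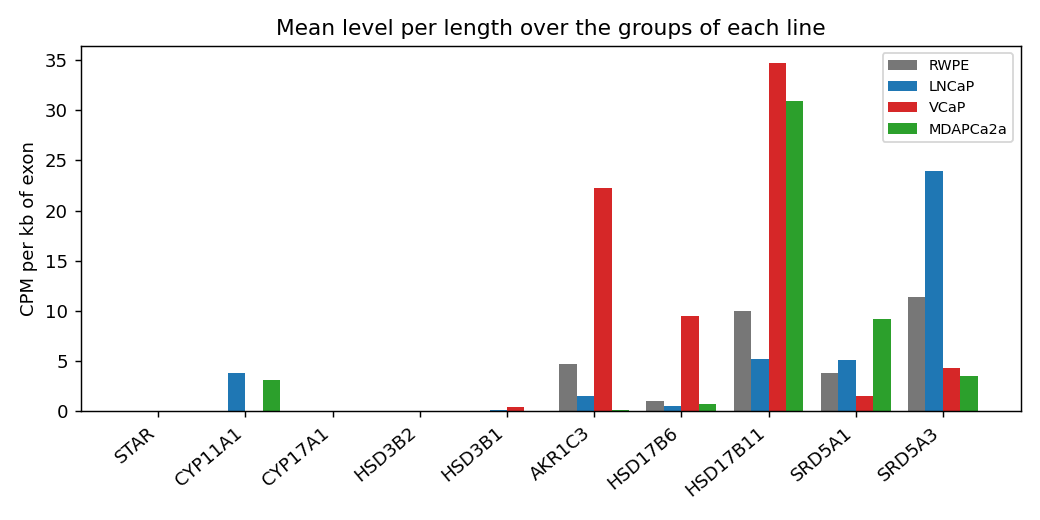
CPM per kb of exon (linear axis from 0) for the 10 genes, one bar per cell line, each the mean over that line's groups. SRD5A3 is the tallest LNCaP bar and HSD17B11 the tallest VCaP and MDAPCa2a bar, while STAR, CYP17A1 and HSD3B2 do not rise visibly from the axis.

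CYP11A1 was a gene of 2 lines. RWPE libraries held 0 or 1 read and VCaP libraries 0 to 4 reads. LNCaP held 5.94 and 5.51 CPM in plastic control, 1.39 and 0.354 CPM in plastic stripped, 36.2 and 10.2 CPM in ACP control, 4.27 and 2.11 CPM in ACP stripped, and 15.2 and 10.8 CPM in ACP androgen. The 2 stripped groups of LNCaP lay below each of its other groups with no overlap. MDAPCa2a ran the other way on plastic: 0.0902 and 0.249 CPM in plastic control (3 and 9 reads) against 20.2 and 18.8 CPM in plastic stripped (606 and 464 reads), with 2.91 and 6.11 CPM in ACP stripped and 4.51 and 6.93 CPM in ACP androgen. This is the pattern for which the gene was chosen, so the 115-fold ratio of the plastic group means is given as a description and was not tested. The ACP groups of MDAPCa2a lay between the plastic groups without overlap. Contrasts with these plastic libraries were not tested for CYP11A1. On ACP, MDAPCa2a gave a change of 0.32 for androgen against stripped serum (SE 0.37, edgeR adjusted p = 0.968). The LNCaP ACP control libraries spanned both of the groups that follow them in the order. By group mean the order was LNCaP ACP control (23.2 CPM), MDAPCa2a plastic stripped (19.5), LNCaP ACP androgen (13.0), then LNCaP plastic control (5.72) and MDAPCa2a ACP androgen (5.72), whose libraries overlap, and the MDAPCa2a (4.51) and LNCaP (3.19) ACP stripped groups, which also overlap.

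**Figure D2:**
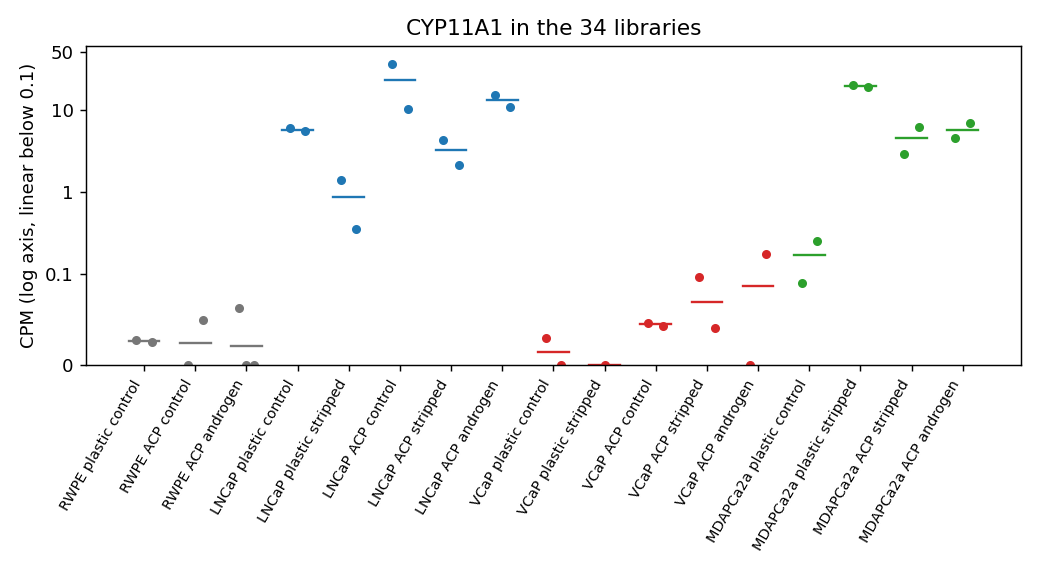
CYP11A1 in CPM (log axis, linear below 0.1), one point per library and a bar at the group mean, coloured by cell line. LNCaP stripped groups sit below the other LNCaP groups, and MDAPCa2a plastic stripped (20.2 and 18.8 CPM) sits far above MDAPCa2a plastic control (0.0902 and 0.249 CPM).

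In LNCaP, CYP11A1 fell with serum stripping on both surfaces and was higher on ACP than on plastic in control medium. In stripped serum its ACP libraries (4.27 and 2.11 CPM) also lay above its plastic libraries (1.39 and 0.354 CPM), but that difference missed the threshold given below. With no count filter the log2 change was 1.77 and passed (edgeR adjusted p = 0.000129). Fold changes below are log2 values from edgeR's quasi-likelihood test with standard errors and Benjamini-Hochberg adjusted p, and a gene passed at an adjusted p below 0.05. On plastic it fell by 2.54 (SE 0.63, adjusted p = 0.0295). On ACP it fell by 2.89 (SE 0.58, adjusted p = 0.0159). ACP against plastic in control medium gave 2.13 (SE 0.55, adjusted p = 0.0304). These calls rest on few libraries: the plastic call was lost without any 1 of its 4 libraries (adjusted p 0.0876 to 0.12), the ACP stripping call without ACP control replicate 1 (0.0847), ACP stripped replicate 1 (0.0716) or ACP stripped replicate 2 (0.138), and the surface call without plastic control replicate 1 (0.194), plastic control replicate 2 (0.176) or ACP control replicate 1 (a change of 0.89, 0.308). Added androgen was 2.02 above stripped serum on ACP (SE 0.57), but missed the threshold (adjusted p = 0.0525) and passed with no count filter (1.08e-07), with a fit of all lines (0.0327) and without ACP androgen replicate 2 (0.0438).

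Its electron donors were measured beside it. FDX1, the ferredoxin that feeds electrons to CYP11A1, rose in LNCaP by 0.96 with stripping on plastic (adjusted p = 0.0076) and by 1.07 on ACP (0.0069), where CYP11A1 fell. It also rose on ACP against plastic, by 0.70 in control medium (0.029), where CYP11A1 was higher too, and by 0.81 in stripped serum (0.025). FDX1 averaged 36.6 CPM in MDAPCa2a plastic control and 58.5 CPM in plastic stripped. That change of 0.72 (SE 0.16) did not pass (edgeR adjusted p = 0.058). FDXR, the reductase that supplies FDX1, did not pass in any within-line comparison of LNCaP or MDAPCa2a.

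By a rule over the 17 group means of log2 CPM (13216 genes that reached a mean of 5 CPM in some group), the genes whose pattern was most like CYP11A1 were GSPT1 (Pearson r = 0.919), SORD (0.912), C1orf21 (0.904), TTC8 (0.896) and TENM1 (0.893). The points share libraries, depth and 4 lines, so these are descriptions with no p. They include the MDAPCa2a plastic groups for which CYP11A1 was chosen, and the RWPE and VCaP groups where it had few reads. GSPT1 averaged 250 and 323 CPM in MDAPCa2a plastic control and stripped, a far smaller change than that of CYP11A1. SORD, sorbitol dehydrogenase, averaged 259 and 531 CPM in MDAPCa2a plastic control and stripped, and 438 and 1001 CPM in LNCaP plastic stripped and ACP control. Spearman's rank correlation kept 2 of these 5 among its first 5, and correlation over 34 libraries kept 3.

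HSD3B1, the peripheral 3-beta dehydrogenase, had appreciable reads in 1 group. VCaP ACP androgen held 2.18 and 3.53 CPM (51 and 81 reads). VCaP ACP stripped held 0.241 and 0.0815 CPM (5 and 2 reads) and VCaP ACP control 0.367 and 0.0431 CPM. All RWPE libraries had 0 reads, and LNCaP and MDAPCa2a libraries had at most 15 and 8. The androgen libraries thus lay above all others. With a count filter HSD3B1 entered the VCaP tests through the 2 androgen libraries, since every other VCaP library was under the filter level, so its high group is also what admitted it. HSD3B1 rose by 4.14 with androgen against stripped serum (SE 0.90, adjusted p = 0.0140), where 17.5% of 15614 genes passed in either direction, and by 3.79 against control medium on ACP (SE 0.87, adjusted p = 0.0350), where 5.99% did. With no count filter the adjusted p was 0.000389 and 0.00184. The first call was lost without stripped replicate 1 (0.0543), stripped replicate 2 (0.0654) or androgen replicate 2 (0.075), and the second without any 1 of its 4 libraries (0.0746 to 0.227). The coding sequences of HSD3B1 and HSD3B2 are 93.7% identical, so reads could be split between them, but HSD3B2 had 0 reads in these androgen libraries. The difference in androgen effect from LNCaP, 4.23 (SE 1.67), did not pass (adjusted p = 0.114).

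AKR1C3 differed between media in LNCaP on ACP. On plastic it stood at 1.68 and 2.10 CPM in control and 3.32 and 3.19 in stripped medium, a change of 0.83 (SE 0.32) that did not pass (adjusted p = 0.136). On ACP it stood at 7.16 and 7.20 CPM in ACP stripped, 3.29 and 1.68 in ACP control, and 1.97 and 1.69 in ACP androgen, with the stripped libraries above all other LNCaP libraries. ACP against plastic in stripped serum did not pass for AKR1C3. It passed with no count filter (1.16, edgeR adjusted p = 0.0105) and with DESeq2 (1.17, 0.0159). Stripping on ACP raised it by 1.50 (SE 0.32, adjusted p = 0.0217), and androgen lowered it: it fell by 1.98 against stripped serum (SE 0.33, adjusted p = 0.00568). The androgen call was kept in every alternative and without each library, the one within-line member call of which this held. The stripping call failed in a joint fit of the 34 libraries (0.0577) and on leaving out ACP control replicate 2 (0.0654), ACP stripped replicate 1 (0.121) or 2 (0.11). In VCaP the replicates of AKR1C3 differed widely (85.5 and 30.6 CPM in ACP control, 85.2 and 52.2 in ACP stripped, 24.6 and 62.7 in ACP androgen), and its androgen change of -0.65 (SE 0.51) did not pass. MDAPCa2a held 0.902 and 0.775 CPM in plastic control and at most 0.284 CPM elsewhere, a change of -1.98 with stripping on plastic that did not pass (adjusted p = 0.123), and only its plastic control libraries were above the filter level there. AKR1C3 shares 91.4% and 91.0% of its coding bases with AKR1C1 and AKR1C2, which reduce other steroids. Its counts are thus uncertain where those are expressed. AKR1C1 averaged 0.725 to 1.67 CPM in the LNCaP groups and 9.06 to 25.1 CPM in the RWPE groups. In LNCaP on ACP, stripping changed AKR1C1 by 1.18 and AKR1C2 by 1.25. Androgen against stripped serum changed AKR1C1 by -0.90 and AKR1C2 by -0.16. None of these paralog changes passed (edgeR adjusted p 0.129, 0.178, 0.201 and 0.874).

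**Figure D3:**
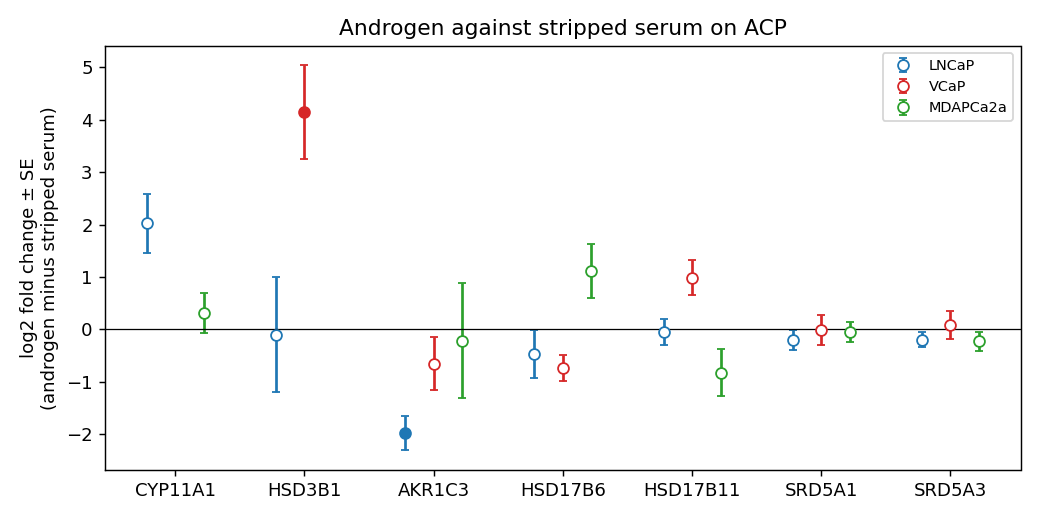
Log2 fold change (± SE) of androgen against stripped serum on ACP for 7 members in LNCaP, VCaP and MDAPCa2a; filled points passed the threshold. HSD3B1 in VCaP (4.14) and AKR1C3 in LNCaP (-1.98) are the filled points. HSD3B1 entered the VCaP fit only through its ACP androgen libraries.

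In RWPE, AKR1C3 was 3.49 and 3.10 CPM on plastic and 9.94 and 9.73 CPM on ACP in control medium, and 26.4, 16.7 and 11.8 CPM with androgen medium, so that the 3 groups did not overlap. ACP against plastic gave a rise of 1.61 (SE 0.34, adjusted p = 0.0311) for AKR1C3 and of 0.76 (SE 0.18, adjusted p = 0.0467) for SRD5A3; 4.16% of 14293 genes passed in that comparison. Both calls were lost without any 1 of the 4 libraries (adjusted p 0.154 to 0.229 for AKR1C3 and 0.25 to 0.361 for SRD5A3), and SRD5A3 also with RLE scaling (0.0542). Androgen medium against control medium on ACP, where RWPE also changed from serum-free to stripped-serum medium, lowered SRD5A1: it fell by 0.58 (SE 0.17, adjusted p = 0.0405), where 19.1% of genes passed. It missed the threshold on leaving out ACP control replicate 1 (0.275) or 2 (0.179) or androgen replicate 1 (0.103). The further change of AKR1C3, 0.92 (SE 0.30), did not pass (adjusted p = 0.0567), but passed with no count filter (0.0213), DESeq2 (0.0215) and without androgen replicate 3 (0.00268). In that comparison its paralog AKR1C2 rose by 1.07 (edgeR adjusted p = 0.0429), and AKR1C1 changed by 0.86, which did not pass (0.0686). On ACP against plastic AKR1C1 changed by 0.66 (0.257) and AKR1C2 by 0.76 (0.224), and neither passed.

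HSD17B6, which oxidizes androstanediol back to dihydrotestosterone, was mainly a VCaP gene. VCaP libraries held 8.58 to 29.7 CPM and the other lines at most 3.26 CPM. VCaP ACP control held 23.9 and 29.7 CPM, ACP stripped 16.1 and 17.5 CPM and ACP androgen 11.6 and 8.58 CPM, a decline with no overlap between the 3 groups. Against control medium it fell by 1.39 with androgen (SE 0.25, adjusted p = 0.0157), but this call was lost without any 1 of the 4 libraries (0.0535 to 0.146). The change against stripped serum, -0.73 (SE 0.25), did not pass (adjusted p = 0.0679). In MDAPCa2a, where HSD17B6 was at 0.407 to 2.36 CPM, the change with androgen was 1.12 (SE 0.51) and did not pass.

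HSD17B11, a dehydrogenase that acts on androstanediol and related steroids, was high in VCaP (39.8 to 138 CPM) and MDAPCa2a (36.4 to 121 CPM) and lower in RWPE (8.89 to 33.3) and LNCaP (4.01 to 14.1). In LNCaP it rose by 1.39 on ACP against plastic in control medium (SE 0.25, adjusted p = 0.0113), from 5.77 and 4.01 CPM to 12.9 and 11.0 CPM. In stripped serum its LNCaP ACP libraries (11.1 and 13.9 CPM) also lay above its plastic ones (7.07 and 7.94 CPM). That difference did not pass, but passed with no count filter (0.76, edgeR adjusted p = 0.0392) and with DESeq2 (0.77, 0.0417). In RWPE its ACP control libraries (16.5 and 23.0 CPM) also lay above its plastic control ones (10.5 and 8.89 CPM). That change did not pass, but passed with no count filter (1.05, edgeR adjusted p = 0.0112) and with DESeq2 (1.03, 0.0127). In VCaP its ACP androgen libraries (89.6 and 138 CPM) lay above its ACP stripped ones (65.6 and 48.9 CPM), a change of 0.99 (SE 0.34) that did not pass (adjusted p = 0.0672) but passed with no count filter (0.00667) and with DESeq2 (0.0144). SRD5A3, a reductase that also serves protein glycosylation, rose on ACP by 0.65 in control medium (SE 0.14, adjusted p = 0.0194) and by 0.69 in stripped serum (SE 0.14, adjusted p = 0.0216). It stood at 78.8 and 77.8 CPM in plastic control, 80.0 and 75.5 in plastic stripped, 99.0 and 131 in ACP control, 126 and 120 in ACP stripped, and 104 and 111 in ACP androgen. The 6 ACP libraries of LNCaP thus lay above its 4 plastic libraries. The HSD17B11 call failed on leaving out plastic control replicate 1 (0.116) or 2 (0.114) or ACP control replicate 1 (0.0641); the SRD5A3 control call without plastic control replicate 1 (0.179) or 2 (0.15) or ACP control replicate 2 (0.0667); and the SRD5A3 stripped call without plastic stripped replicate 1 (0.149) or ACP stripped replicate 1 (0.147) or 2 (0.117). All 3 also missed the threshold in a fit of all lines (0.061, 0.0764 and 0.0598). SRD5A3 overlaps the antisense gene SRD5A3-AS1, and the use of strand in counting is not given in the sources used here.

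No test of SRD5A1 or SRD5A3 passed within VCaP or MDAPCa2a. VCaP held 8.44 to 12.7 CPM of SRD5A1 and 13.9 to 22.8 CPM of SRD5A3. MDAPCa2a held SRD5A1 at 107 and 78.2 CPM in plastic control and at 49.3 to 70.6 CPM in its other libraries, with no overlap, but the change with stripping on plastic, -0.48 (SE 0.19), did not pass (adjusted p = 0.252).

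**Figure D4:**
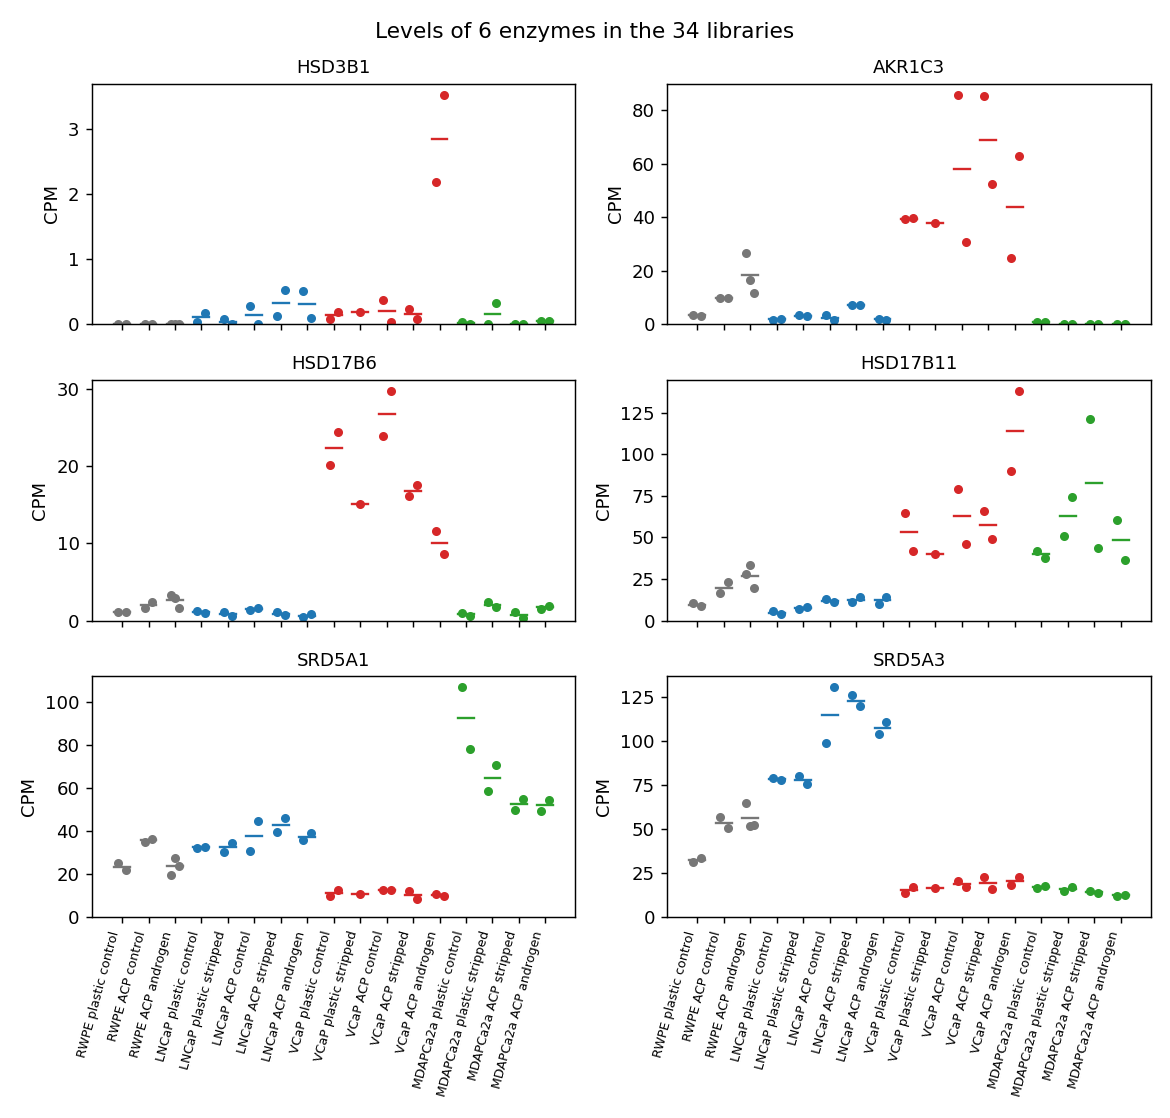
CPM (linear axes from 0) of 6 enzymes, one point per library with a bar at the group mean, coloured by cell line. The VCaP ACP androgen libraries stand alone for HSD3B1 (2.18 and 3.53 CPM), and SRD5A3 sits highest in all 10 LNCaP libraries (75.5 to 131 CPM).

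Counts of members passing per comparison are given beside the share of all genes passing in either direction. In RWPE, 2 of 5 passed for ACP against plastic (4.16%) and 1 of 5 for androgen against control medium (19.1%). In LNCaP, 3 of 7 passed for ACP against plastic in control medium (12.6% of all genes), 1 of 7 for stripping on plastic (9.45%), 2 of 7 for stripping on ACP (5.37%), 1 of 7 for ACP against plastic in stripped serum (6.12%), 1 of 7 for androgen against stripped serum (7.73%) and 0 of 7 for androgen against control medium (15.1%; 1 with an unadjusted edgeR p below 0.05, and 0 with DESeq2). In VCaP, 1 of 6 passed for androgen against stripped serum (17.5%) and 2 of 6 for androgen against control medium (5.99%); 0 of 6 passed for ACP against plastic in control medium (0.0448%), stripping on plastic (0.89%), stripping on ACP (0.82%) and ACP against plastic in stripped serum (0.00%), where an unadjusted edgeR p lay below 0.05 for 0, 0, 1 and 0 members and DESeq2 called 0. The VCaP plastic stripped group is 1 library, which the fit assumes to vary like the other groups, here and in the VCaP interaction and the VCaP stripping effects compared between lines. In MDAPCa2a, of members other than CYP11A1, 0 of 5 passed for stripping on plastic (1.58%) and 0 of 5 for ACP against plastic in stripped serum (0.00734%), and 0 of 6 members passed for androgen on ACP (0.00%). In these 3 comparisons DESeq2 called 0 members, and 3, 1 and 0 members lay below 0.05 in edgeR before adjustment. Over the 17 comparisons 14 of 104 member tests passed, with 9 higher and 5 lower, and 33 had an unadjusted p below 0.05. The 14 include HSD3B1 in both VCaP androgen comparisons, a gene that entered the VCaP fit only through its ACP androgen libraries. Neither surface by serum interaction called a member (0 of 7 in LNCaP, where 0.307% of genes passed, and 0 of 6 in VCaP, 0.0256%; DESeq2 called 0, and 0 of 13 lay below 0.05 before adjustment).

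The effects of androgen on ACP and of stripping on plastic were also compared between lines, and 2 of 40 member tests passed, both for androgen in MDAPCa2a against VCaP. There 7.86% of 17323 genes passed, against 10.9% for VCaP against LNCaP and 1.12% for MDAPCa2a against LNCaP. In those other androgen contrasts 0 of 7 members passed in each, 2 and 2 lay below 0.05 before adjustment in edgeR, and DESeq2 called 0. For stripping, 4.67% of genes passed for VCaP against LNCaP, 1.81% for MDAPCa2a against LNCaP and 3.12% for MDAPCa2a against VCaP. No member passed there (0 of 7, 0 of 6 and 0 of 6, with CYP11A1 left out of the MDAPCa2a contrasts). Before adjustment 0, 2 and 2 members lay below 0.05 in edgeR, and DESeq2 called 0, 1 (AKR1C3) and 1 (HSD17B6).

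Between lines, 25 of 39 tests passed in plastic control (6 pairs of lines and 7 members, without CYP11A1 in MDAPCa2a), and on ACP with androgen, which uses no plastic control library, 36 of 42 passed. Both counts include tests of HSD3B1. That gene reached the filter level of a line only in VCaP ACP androgen, LNCaP ACP androgen and LNCaP ACP stripped libraries. For HSD3B1 the ACP androgen groups compared here are thus part of what admitted it. Line and base medium cannot be told apart. Over all genes, the share passing in plastic control was 57.4% for LNCaP against RWPE, 62.4% for VCaP against RWPE, 56.7% for MDAPCa2a against RWPE, 52.6% for VCaP against LNCaP, 40.2% for MDAPCa2a against LNCaP and 52.4% for MDAPCa2a against VCaP. On ACP with androgen the shares, in the same order, were 66.9%, 67.4%, 64.0%, 56.0%, 45.3% and 51.4%. Most genes thus differed between most pairs of lines, and the members' counts are not read as particular to them. Of the 39 pairs of lines and members tested in both settings, 24 passed in both settings and all 24 had the same direction. The matching share over all genes is not given here, so this count too is not read as particular to the members.

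Among the largest line differences were those of CYP11A1 and AKR1C3. CYP11A1 had 531 reads in LNCaP and 2 in RWPE in plastic control, a ratio of 218 (exact 95% counting interval 60.2 to 1808), and 775 reads against 1 on ACP with androgen, a ratio of 708 (127 to 27996). MDAPCa2a against VCaP on ACP with androgen differed for CYP11A1 by 5.97 (SE 0.85, adjusted p = 2.49e-06). AKR1C3 had 2014 reads in VCaP and 3 in MDAPCa2a on ACP with androgen, a ratio of 543 (185 to 2634); in plastic control, MDAPCa2a fell below VCaP by 5.56 (SE 0.52, adjusted p = 2.62e-09). VCaP stood above LNCaP for AKR1C3 by 4.38 (SE 0.47) in plastic control and 4.58 (SE 0.48) on ACP with androgen. HSD3B1 in VCaP ACP androgen was at least 51.9-fold higher than in RWPE, where the group had 0 reads (floor of 3 counts over the group).

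VCaP exceeded LNCaP for HSD17B6 by 4.31 (SE 0.39) in plastic control and 3.92 (SE 0.41) on ACP with androgen, and for HSD17B11 by 3.44 (SE 0.41) and 3.23 (SE 0.40). Its SRD5A enzymes went the other way: SRD5A3 was lower than in LNCaP by 2.34 (a log2 change of -2.34, SE 0.19) and -2.39 (SE 0.19), and SRD5A1 by -1.55 (SE 0.21) and -1.87 (SE 0.22). MDAPCa2a exceeded VCaP for SRD5A1 by 3.05 (SE 0.22) and 2.35 (SE 0.22). Adjusted p for these lay at 3.18e-07 or below, except SRD5A1 in VCaP against LNCaP in plastic control (1.2e-06). Of 61 member calls between lines, 51 were kept without each library in turn. The other 10 were lost without at least 1 library. In plastic control, LNCaP against RWPE lost HSD17B11 (-0.97) without RWPE replicate 1 (0.105) or 2 (0.0573) or LNCaP replicate 2 (0.227), and SRD5A1 (0.48) without any 1 of the 4 libraries (0.115 to 0.22). SRD5A1 was also lost there with RLE scaling, no count filter and DESeq2. On ACP with androgen, the same pair lost HSD17B11 without RWPE replicate 2 (0.0545) or LNCaP replicate 1 (0.0906), and HSD3B1 without RWPE replicate 3 (0.0529) or LNCaP replicate 1 (0.189). HSD17B11 was lost in MDAPCa2a against RWPE without RWPE replicate 3 (0.0722) or MDAPCa2a replicate 1 (0.373), and in MDAPCa2a against VCaP without VCaP replicate 2 (0.124) or MDAPCa2a replicate 2 (0.12). Without VCaP replicate 2, the calls of AKR1C3 against RWPE (0.271), HSD3B1 against LNCaP (0.0705) and SRD5A3 in MDAPCa2a against VCaP (0.0647) were lost. HSD3B1 in VCaP against LNCaP was also lost without LNCaP replicate 2 (0.13) and with DESeq2 (0.0908). HSD17B6 in MDAPCa2a against LNCaP was lost without LNCaP replicate 1 (0.119) or MDAPCa2a replicate 2 (0.0985).

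**Figure D5:**
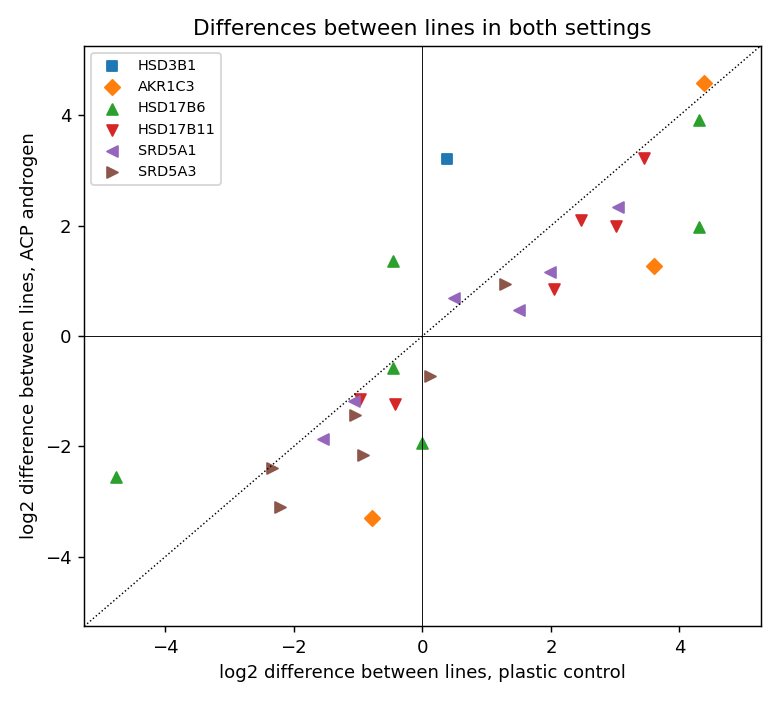
Log2 differences between lines for the members in plastic control (horizontal) and on ACP with androgen (vertical), one point per pair of lines and member; 28 of 39 are plotted, those with more than 3 reads in every group, and CYP11A1 in MDAPCa2a is left out. AKR1C3 for VCaP against LNCaP is the point furthest to the upper right (4.38 and 4.58).

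Genes around the pathway were counted over 66 listed genes in 8 lists (cofactors, cholesterol delivery, other dehydrogenases, other reductases, later steps, sulfation, glucuronidation and regulators), of which 65 were in the table. With androgen against stripped serum, 12 of 52 tested rose and 5 fell in VCaP, where 17.5% of all genes passed, and 6 of 48 rose and 4 fell in LNCaP, where 7.73% did; 0 of 43 passed in MDAPCa2a, where 0 had an unadjusted edgeR p below 0.05 and DESeq2 called 0. The median log2 change of the listed genes was 0.06 in VCaP, where that of all genes was -0.03, and 0.04 in LNCaP against -0.01. Of 11 cholesterol delivery genes, 3 rose with androgen in VCaP and 4 in LNCaP, 0 fell, and the other 8 and 7 did not pass. STARD4, a cytosolic cholesterol carrier, rose by 2.03 in VCaP (adjusted p = 0.0049) and by 0.95 in LNCaP (0.035), and NPC1, which exports lysosomal cholesterol, by 1.54 (0.0029) and 0.96 (0.019). Of 6 glucuronidation enzymes, which inactivate androgens and are close paralogs whose reads may be split, 3 rose and 0 fell in VCaP, and 1 rose and 2 fell in LNCaP. UGT2B28 rose by 5.43 in LNCaP (adjusted p = 0.0023), and VCaP had 0 reads in stripped serum and 51 with androgen (0.0067). UGT2B17 fell by 2.27 in LNCaP (0.00093), and its change of -1.15 in VCaP did not pass (0.215). With stripping on plastic, 6 of 48 rose and 6 fell in LNCaP (9.45% of all genes), and 3 of 43 rose and 2 fell in MDAPCa2a (1.58%). In MDAPCa2a those were NR5A2 (1.39, adjusted p = 0.041), HSD11B2 (0.96, 0.037) and SULT2B1 (0.94, 0.032), which rose, and HSD17B2 (-1.74, 0.015) and LIPE (-2.90, 0.046), which fell. HSD17B2 oxidizes testosterone to androstenedione and LIPE frees cholesterol from its esters.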

How the data were processed

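The authors' deposited table gives whole, unnormalized read counts for 26336 gene symbols in 34 libraries. Per the submitters' processing notes, STAR, HTSeq and hg19 were used; the sources used here give no version, annotation or strand setting. The members, lists and named genes were chosen with earlier results of these data known; the members are all named, pathway genes may be named when past the threshold (at most 6 per comparison), and the 5 genes most like CYP11A1 were taken by Pearson correlation. Counts were tested with edgeR 4.0.16 in R 4.3.3 (quasi-likelihood test with TMM scaling; genes kept by filterByExpr at a minimum count of 10; Benjamini-Hochberg adjustment over all genes tested). Comparisons within a line used a fit of its groups, and comparisons of lines and of effects used a fit of all 34 libraries. CPM use TMM sizes over all lines, so folds of CPM differ slightly from fitted changes. Standard errors are the log2 change divided by the square root of F. Exon lengths came from GENCODE and promoters from RefSeq, both on GRCh38; HSD17B6 had no promoter entry. Alternatives were RLE scaling, no count filter, DESeq2 1.42.0, a replicate block, a fit of all lines and leaving out each library. The steps were tested on simulated data. Intervals and limits from 0 counts cover counting error only.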

Additional observations from a re-analysis of the deposited data

Results flagged for a closer look

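The androgen effect on ACP differed between MDAPCa2a and VCaP by a test of the difference itself for 2 members, where 7.86% of 17323 genes passed. HSD17B6 moved by 1.91 more in MDAPCa2a (log2, SE 0.57, adjusted p = 0.0381, edgeR), with changes of 1.12 in MDAPCa2a and -0.73 in VCaP that each missed the threshold. HSD17B11 moved by -1.75 (SE 0.53, adjusted p = 0.0403), since its levels were 114 CPM with androgen and 57.3 CPM in stripped serum in VCaP and 48.4 and 82.5 CPM in MDAPCa2a. MDAPCa2a ACP stripped replicate 1 held 121 CPM and replicate 2 held 43.7 CPM, and without replicate 1 the HSD17B11 difference was -0.83 (adjusted p = 0.362). The HSD17B6 difference without MDAPCa2a ACP stripped replicate 2 was 1.33 (adjusted p = 0.17) and without MDAPCa2a ACP androgen replicate 1 it was 2.09 (0.0523), and neither call was kept without VCaP ACP stripped replicate 1 or 2, VCaP ACP androgen replicate 2 or MDAPCa2a ACP androgen replicate 2.

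CYP11A1 moved in opposite directions with serum stripping on plastic in MDAPCa2a, where both stripped libraries lay above both control libraries, and in LNCaP, where both lay below. The fitted difference was 9.40 on the log2 scale. It was not tested, because the gene was chosen for this pattern, and plastic control carries the liver and lymphoid transcripts described above in both lines.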

How the results depend on the processing

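Of the 14 member calls within lines, 1 was kept without each library in turn and 9 under all other alternatives; of the 61 between lines, 51 and 55, and of the 2 differences of effects, 0 and 2. The within-line total of 14 calls became 23 with no count filter, 19 with DESeq2, 13 with RLE scaling and 11 in a fit of all lines. The 2 differences of effects became 4 with no count filter, 4 with DESeq2 and 0 to 3 when single libraries were left out. The change of CYP11A1 with androgen in MDAPCa2a (0.32) turned to -0.0832 without ACP stripped replicate 1 and to -0.00411 without ACP androgen replicate 2, and ran up to 0.904 over the libraries left out. With a replicate block the calls were 20 within lines, 23 and 34 between lines in plastic control and ACP androgen, 2 for differences of effects and 0 for interactions; the labels give only replicate numbers, and correlations of same-numbered deviations between groups ran from -0.34 to 0.42, so the numbers do not pair the samples. The block's added calls included CYP11A1 with androgen on ACP in LNCaP (2.10, adjusted p = 0.0112) and AKR1C3 with androgen medium in RWPE (1.14, 0.00164). Spearman correlation kept 2 and 34 libraries kept 3 of the 5 genes most like CYP11A1. The group with the highest level was the same for all 10 members with RLE and with total counts. STAR, HSD3B2 and CYP17A1 lie below what this depth can compare.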

Other observations

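Some other enzymes of the pathway were near absent. Group means of SRD5A2, the reductase of normal prostate stroma, did not exceed 0.0646 CPM, and those of CYP19A1, which makes estrogens, did not exceed 0.0327 CPM. HSD17B3, the testicular testosterone enzyme, reached 1.41 CPM in RWPE ACP control and at most 0.122 CPM outside RWPE. HSD17B2 averaged 27.0 CPM in MDAPCa2a plastic control and 4.44 to 7.86 CPM in its other groups, and at most 2.22 CPM in other lines.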
